A study of Mus musculus with 6 samples.

Results

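Cxcr5, Cxcr4, Gpr183 and S1pr2 encode receptors that position lymphocytes in and around B cell follicles. All 4 were taken by symbol from the deposited gene table, which holds 38216 different symbols. Each had 1 row there, and each was among the 13311 genes that passed the filter on low values. Their RNA was measured as TPM (a transcript level scaled for transcript length and to a fixed total per library) in 6 libraries of CD4+ T cells. The cells came from spleens of naïve C57BL/6 mice with an IL21-VFP reporter, taken at postnatal day 28. VFP is a fluorescent protein that reports transcription of Il21, a cytokine gene of follicular helper T cells, and ICOS is a costimulatory receptor raised on activated T cells. The N pool was sorted as VFP- ICOS-, the ACT pool as VFP- ICOS+ and the ACT IL21 pool as VFP+ ICOS+, with 2 libraries each. All 3 pools carried the reporter. How many animals gave each library, and whether a pool's 2 libraries were made from separate animals, is not in the labels. The p-values therefore measure only how far these libraries differ, and that spread may be technical.

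CXCR5 senses CXCL13, a chemokine made by stromal cells of the follicle, and draws T cells towards B cells. CXCR4 senses CXCL12 and is carried by most T cells, and in germinal centres it sorts cells towards the dark zone. GPR183 (also called EBI2) follows oxysterols to the outer follicle and the border of the T cell zone, and S1PR2 senses sphingosine 1-phosphate and holds cells back from migrating, which keeps B cells and follicular helper T cells inside germinal centres. CCR7 and S1PR1 act in the other direction, towards the T cell zone and out of the organ.

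The sort markers and the defining genes of the labelled cells were checked first. Icos was at 35.7 and 31.9 TPM in N, 254 and 241 in ACT, and 185 and 227 in ACT IL21. Il21 reached 44.5 and 51.9 TPM in ACT IL21, was found at 1.26 TPM in 1 ACT library, and was listed at 0 in the remaining 3. Cd4 was at 357.9 and 315.6 TPM in N, 267.6 and 236.1 in ACT, and 533.5 and 566.5 in ACT IL21. By the limma tests described below, Cd4 was higher in ACT IL21 than in N and in ACT (adjusted p = 0.0301 and 0.0103). With 1 library left out, its log2 fold changes ranged from 0.62 to 0.8 and from 1.04 to 1.22. All 10 T cell markers searched were detected, with Cd3e, a subunit of the T cell receptor complex, between 1275 and 2132 TPM. Cd247 was called lower in ACT than in N and in ACT IL21, and Cd28 higher in ACT IL21 than in N. Spearman correlations across genes were 0.941 to 0.971 within pools and 0.904 to 0.931 between pools, and genes are not independent replicates. TPM keeps no depth, so no counting interval is given.

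Cxcr5 rose stepwise from N to ACT to ACT IL21, Gpr183 was lowest in ACT, S1pr2 was higher in ACT IL21 than in N, and Cxcr4 did not pass a test in any comparison. Tests are limma on log2(TPM + 1) over all 6 libraries, with Benjamini-Hochberg adjustment across the 13311 genes, a threshold of 0.05 and unadjusted 95% intervals. In ACT against N, 2 of the 4 genes passed, 1 higher and 1 lower, against 5.58% of all genes tested (4.15% higher and 1.43% lower). In ACT IL21 against N, 2 of 4 passed, both higher, against 5.09% of all genes (3.82% higher and 1.26% lower). In ACT IL21 against ACT, 2 of 4 passed, both higher, against 1.95% (0.796% higher and 1.15% lower). The 3 comparisons share libraries, so their results are not independent of one another.

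**Figure D1:**
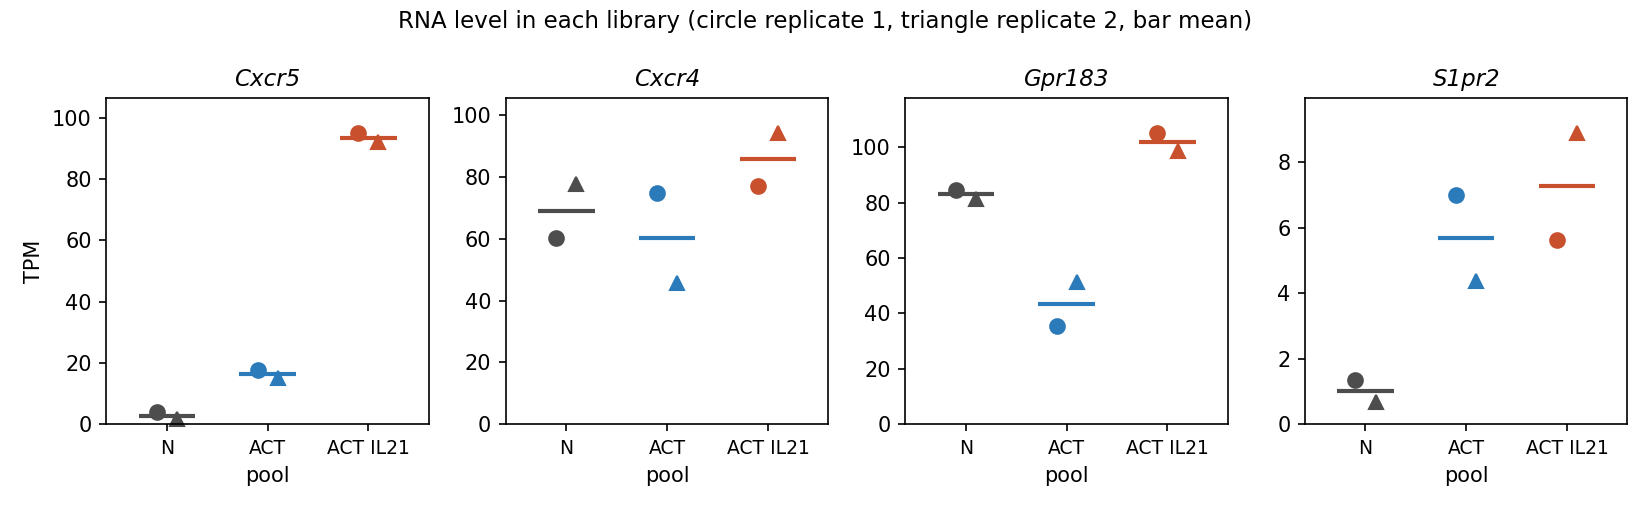
TPM (vertical axis, from 0) of the 4 receptor genes in each of the 6 libraries, by pool; circles are replicate 1, triangles replicate 2 and bars the mean of 2. Cxcr5 climbs from at most 3.85 TPM in N to at least 91.91 in ACT IL21, Gpr183 dips in ACT, and the Cxcr4 values of N and ACT overlap.

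Cxcr5, the receptor for the follicular chemokine, was at 3.85 and 1.54 TPM in the N libraries, 17.79 and 15.03 in ACT, and 95.03 and 91.91 in ACT IL21. Every ACT library was above every N library, and every ACT IL21 library above every ACT library. Among all tested genes, the libraries did not overlap and were higher for 25.2% in ACT against N and 24.5% in ACT IL21 against ACT, and were lower for 17.3% in the latter. The mean level was 2.69 ± 1.63 TPM in N, 16.4 ± 1.95 in ACT and 93.5 ± 2.21 in ACT IL21 (SD, n = 2).

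The mean of ACT was 6.09 times that of N, a log2 fold change of 2.31 ± 0.35 (SE, limma adjusted p = 0.0083). From ACT to ACT IL21 the mean rose a further 5.70 times (log2 fold change 2.44 ± 0.35, limma adjusted p = 0.0155). The 2 steps together gave 34.7 times the N level (4.75 ± 0.35, limma adjusted p = 0.000378), the 13th largest rise among the 13311 genes in that comparison. Cxcr5 moved from above 22.5% of tested genes in N to above 52.2% in ACT and 88.1% in ACT IL21. The difference of ACT IL21 from N passed whichever of the 6 libraries was left out (log2 fold change 4.28 to 5.22). The step from N to ACT lost its call without N replicate 2, ACT replicate 1 or either ACT IL21 library (adjusted p = 0.0524, 0.0582, 0.0548 and 0.054), and the step from ACT to ACT IL21 lost it without either ACT library (0.0783 and 0.0801) or either ACT IL21 library (0.191 and 0.198).

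Gpr183, the oxysterol receptor gene, was at 84.62 and 81.45 TPM in N, 35.38 and 51.17 in ACT, and 105.2 and 98.7 in ACT IL21. Both ACT libraries were below every other library, and both ACT IL21 libraries were above both N libraries. Among all tested genes, 21.9% were lower without overlap in ACT against N, and 24.5% were higher without overlap in ACT IL21 against ACT. In ACT IL21 against N, 31.5% were higher and 19.9% lower without overlap. The means were 83 ± 2.24 TPM in N, 43.3 ± 11.2 in ACT and 102 ± 4.59 in ACT IL21 (SD, n = 2).

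Gpr183 fell in ACT to 0.521 times the N level (log2 fold change -0.95 ± 0.20 SE, limma adjusted p = 0.0381). It was 2.36 times as high in ACT IL21 as in ACT (1.24 ± 0.20, limma adjusted p = 0.0258). Between ACT IL21 and N the log2 difference was 0.29, with a 95% interval of -0.18 to 0.77 (limma adjusted p = 0.516), and this interval holds both a small fall and a rise. Both calls depended on single libraries. Without ACT replicate 2 both held, with log2 fold changes of -1.21 and 1.5. With N replicates 1 and 2, ACT replicate 1 and ACT IL21 replicates 1 and 2 left out one at a time, in that order, the adjusted p was 0.249, 0.229, 0.1005, 0.108 and 0.107 for ACT against N, and 0.0992, 0.1003, 0.0797, 0.232 and 0.22 for ACT IL21 against ACT.

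S1pr2, the receptor that confines cells to germinal centres, was the least abundant of the 4. It was at 1.35 and 0.66 TPM in N, 7.01 and 4.36 in ACT, and 5.62 and 8.89 in ACT IL21. Both ICOS+ pools lay above N without overlap, and they overlapped each other. Among all tested genes, 25.2% were higher without overlap in ACT against N and 31.5% in ACT IL21 against N. Its mean level was 1 ± 0.488 TPM in N, 5.68 ± 1.87 in ACT and 7.25 ± 2.31 in ACT IL21 (SD, n = 2), above 9.64%, 31% and 34.2% of tested genes.

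S1pr2 rose in ACT IL21 over N by 2.03 ± 0.46 on the log2 scale (SE, limma adjusted p = 0.0465), 7.22 times the mean TPM. The same gene did not pass in ACT against N (1.73 ± 0.46, limma adjusted p = 0.0751), although its unadjusted 95% interval, 0.67 to 2.79, lay above 0. The ICOS+ pools differed by 0.3, with an interval of -0.75 to 1.36 (limma adjusted p = 0.808), and this interval holds both a fall and a rise between them. The call in ACT IL21 ended with any 1 library left out, at adjusted p-values of 0.188 and 0.355 without N replicates 1 and 2, 0.05053 and 0.05002 without ACT replicates 1 and 2, and 0.152 and 0.258 without ACT IL21 replicates 1 and 2. It also ended with a replicate block (adjusted p = 0.0551).

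Cxcr4, the CXCL12 receptor gene, was abundant in every pool. It was at 60.4 and 77.71 TPM in N, 74.77 and 45.63 in ACT, and 77.22 and 94.29 in ACT IL21. N and ACT overlapped, N and ACT IL21 overlapped, and both ACT IL21 libraries were above both ACT libraries. Among all tested genes, 24.5% were higher without overlap in ACT IL21 against ACT. The 2 ACT libraries differed from each other by more than the pool means did. The log2 differences were -0.23 for ACT against N (95% interval -0.83 to 0.38, limma adjusted p = 0.726), 0.31 for ACT IL21 against N (-0.29 to 0.92, adjusted p = 0.6) and 0.54 for ACT IL21 against ACT (-0.07 to 1.15, adjusted p = 0.396). Without ACT replicate 2 the difference of ACT from N turned to 0.12. Each interval holds 0 and reaches 0.38 or more above it, so these values do not show that Cxcr4 was equal in the pools.

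**Figure D2:**
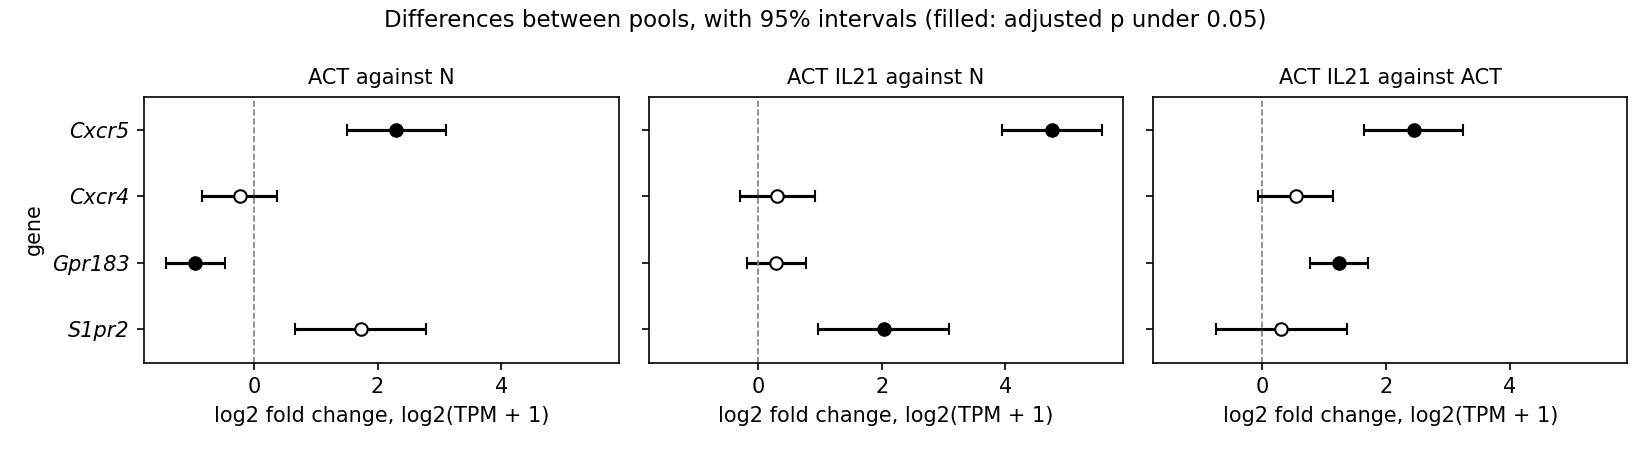
Log2 fold change on the log2(TPM + 1) scale (horizontal axis) of each receptor gene in the 3 comparisons, with unadjusted 95% intervals from limma; filled points passed an adjusted p of 0.05. Cxcr5 is filled in all 3 panels, Gpr183 at -0.95 and 1.24, S1pr2 at 2.03, and Cxcr4 in none.

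Set against all genes, the 4 receptors took different places. In ACT IL21 against N, 0.105% of tested genes differed by as much as Cxcr5, 2.86% by as much as S1pr2, 54.7% by as much as Cxcr4 and 57.1% by as much as Gpr183. In ACT IL21 against ACT these shares were 1.01% for Cxcr5, 7.38% for Gpr183, 31.1% for Cxcr4 and 53.5% for S1pr2. In ACT against N they were 2.21% for Cxcr5, 4.73% for S1pr2, 15.3% for Gpr183 and 65.1% for Cxcr4. The median over all genes was 0.02, 0.1 and 0.08 on the log2 scale in the 3 comparisons, values that are small beside the differences of Cxcr5, Gpr183 and S1pr2 that passed.

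**Figure D3:**
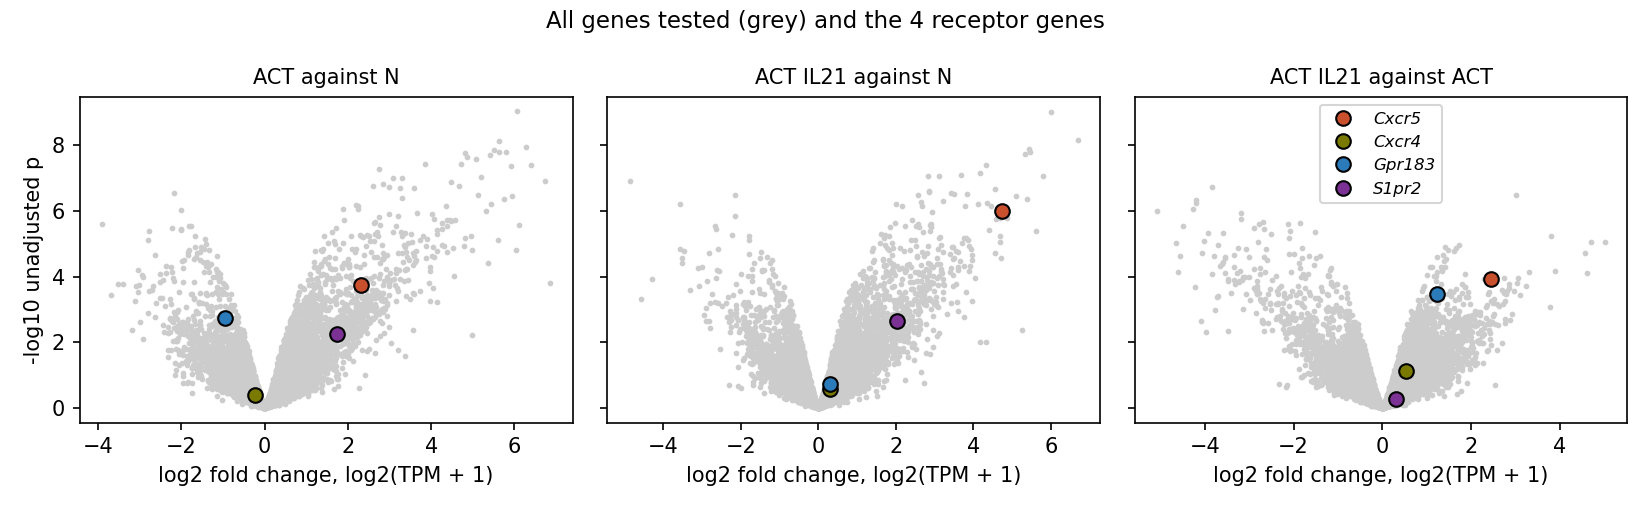
Log2 fold change (horizontal) against -log10 of the unadjusted limma p (vertical) for all 13311 genes tested (grey points), with the 4 receptor genes in colour, in the 3 comparisons. Cxcr5 stands at the right edge in ACT IL21 against N (4.75), and Cxcr4 stays near the centre in each panel.

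The balance of the receptors was also described as ratios within a library, which do not depend on how that library was scaled. The 4 genes together made 150.2 and 161.4 TPM in N, 134.9 and 116.2 in ACT, and 283.1 and 293.8 in ACT IL21. Cxcr5 contributed 2.56% and 0.954% of that sum in N, 13.2% and 12.9% in ACT, and 33.6% and 31.3% in ACT IL21. Cxcr4 and Gpr183 made up nearly all of the sum in N, while in ACT IL21 Cxcr5, Cxcr4 and Gpr183 were present in similar amounts.

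The ratio of Cxcr5 to Gpr183 was 0.0455 and 0.0189 in N, 0.503 and 0.294 in ACT, and 0.903 and 0.931 in ACT IL21. The ratio of Cxcr5 to Ccr7, the receptor gene for the T cell zone, was 0.00905 and 0.00597 in N, 0.196 and 0.277 in ACT, and 0.745 and 0.797 in ACT IL21. Both ratios were ordered N, ACT, ACT IL21 in every library. The ratio of S1pr2 to S1pr1, the egress receptor gene, took another order, at 0.00252 and 0.00142 in N, 0.0543 and 0.0368 in ACT, and 0.0179 and 0.0255 in ACT IL21. Its highest values were in ACT, where S1pr1 was lowest, and S1pr1 exceeded S1pr2 in all 6 libraries. The ratio of Cxcr4 to Gpr183 ran from 0.714 to 0.955 in N and ACT IL21 and was 2.11 and 0.892 in ACT, where 1 library set the pool apart.

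**Figure D4:**
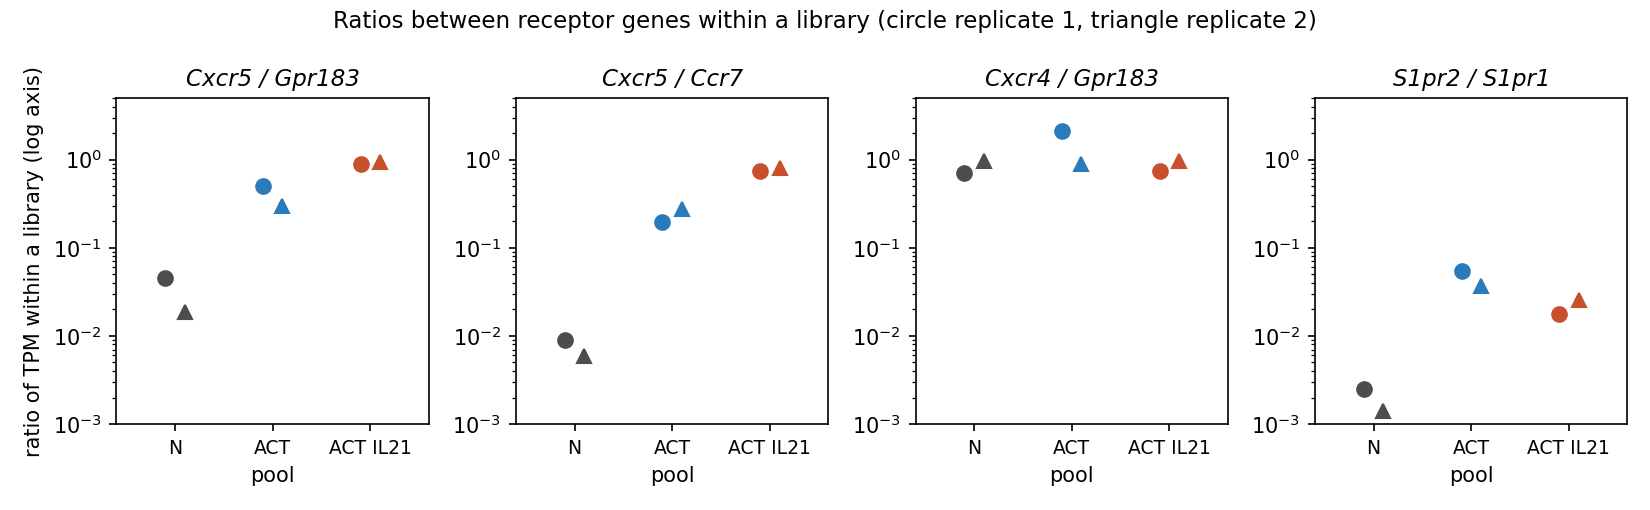
Ratio of TPM between pairs of receptor genes within each library (vertical log axis), by pool; circles are replicate 1 and triangles replicate 2. Cxcr5 to Gpr183 and Cxcr5 to Ccr7 climb from N to ACT IL21 (0.0189 to 0.931 and 0.00597 to 0.797), S1pr2 to S1pr1 peaks in ACT, and Cxcr4 to Gpr183 overlaps between pools.

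All 4 genes are annotated as protein-coding on the minus strand of GRCm38 (GENCODE release M21). Cxcr5 lies on chromosome 9 from 44511787 to 44561877, Cxcr4 on chromosome 1 from 128588199 to 128592293, Gpr183 on chromosome 14 from 121952551 to 121965195, and S1pr2 on chromosome 9 from 20962361 to 20976781. Gpr183 sits wholly inside Ubac2, a gene on the opposite strand, at 21.8 to 33.1 TPM over the libraries. The annotated exons of Gpr183 and Ubac2 share 0 bases. Cxcr5 shares 110 exon bases with the end of Bcl9l on the opposite strand (13.4 to 24.9 TPM), of 3332 exon bases in all. Whether reads were counted by strand is not given in the sources used here, so reads from these overlaps cannot be assigned with certainty.

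Promoter windows are shown so that the dip of Gpr183 in ACT, the rise of S1pr2 in ACT IL21 over N and the levels of Cxcr4, which did not pass, can be read beside upstream sequence. RefSeq windows of GRCm38.p6, 250 bases before to 50 after the annotated start, were matched for 3 of the 4 genes, Cxcr4, Gpr183 and S1pr2, and Cxcr5 was not matched. Capitals mark E-boxes (CANNTG, the letters bound by basic helix-loop-helix factors such as ASCL2 and the E proteins), the TATA letters TATAAA or their reverse complement TTTATA and the palindrome TGACGTCA of cyclic AMP response elements. The E-box form CACCTG with its reverse complement CAGGTG, the form CAGCTG, and the letters CACCC or GGGTG, which KLF factors bind, were also searched. All were searched on both strands and chosen with the sequences in view.
Cxcr4 (chr1:128592250-128592549, minus strand): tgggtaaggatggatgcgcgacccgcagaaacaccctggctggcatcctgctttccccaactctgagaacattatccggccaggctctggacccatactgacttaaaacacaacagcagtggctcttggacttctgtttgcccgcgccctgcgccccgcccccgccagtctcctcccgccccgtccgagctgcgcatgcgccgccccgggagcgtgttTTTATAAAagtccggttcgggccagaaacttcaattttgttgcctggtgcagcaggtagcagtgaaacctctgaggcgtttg
Gpr183 (chr14:121965144-121965443, minus strand): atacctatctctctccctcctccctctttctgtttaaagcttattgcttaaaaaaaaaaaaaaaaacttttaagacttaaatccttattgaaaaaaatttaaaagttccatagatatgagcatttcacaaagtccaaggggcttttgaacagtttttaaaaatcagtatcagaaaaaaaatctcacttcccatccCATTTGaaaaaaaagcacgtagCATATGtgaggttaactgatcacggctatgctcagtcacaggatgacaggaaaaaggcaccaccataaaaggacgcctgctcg
S1pr2 (chr9:20976744-20977043, minus strand): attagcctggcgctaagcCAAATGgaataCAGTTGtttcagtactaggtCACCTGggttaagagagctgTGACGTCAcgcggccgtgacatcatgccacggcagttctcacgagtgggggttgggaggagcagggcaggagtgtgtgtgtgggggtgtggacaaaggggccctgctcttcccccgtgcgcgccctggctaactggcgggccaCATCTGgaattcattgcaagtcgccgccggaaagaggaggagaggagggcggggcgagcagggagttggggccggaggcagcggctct

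The S1pr2 window held 4 E-boxes and the Gpr183 window 2, and 72.3% of 32544 promoter windows of the same length held at least 1. The CACCTG form was found once, in the S1pr2 window, and 33.1% of windows held 1 of these forms. No E-box letters were in the Cxcr4 window, which held the TATA letters on both strands in 2 overlapping matches, 32 and 30 bases before the start (in 13.6% of windows). CACCC or GGGTG was found once in Cxcr4, once in S1pr2 and not in Gpr183 (in 57.7%). The cyclic AMP response palindrome, found once in the S1pr2 window, was in 1.8% of windows. The Gpr183 window was poor in G and C, at 35.3%, against 59.3% for Cxcr4, 62% for S1pr2 and a median of 53%. A match describes letters in the window and is not a measured site.

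Of the genes of the ligands and of the enzymes that make or remove them, 7 of 15 in the table were tested, and by limma 0 passed in any comparison. Of all genes tested, 5.58%, 5.09% and 1.95% passed in ACT against N, ACT IL21 against N and ACT IL21 against ACT. At an unadjusted p under 0.05 there were 1, 2 and 1 of the 7. The share of all genes at that unadjusted threshold is not given here, so these counts cannot be judged against it. The median log2 fold changes of the 7 were 0.13, 0.26 and -0.08. Cxcl13, the CXCR5 ligand gene, was at 0.22 TPM in 1 ACT IL21 library and listed at 0 in the other 5. Cxcl12, the CXCR4 ligand gene, was at 0.1 TPM in 1 N library and listed at 0 elsewhere. Ch25h and Cyp7b1, enzymes of the oxysterol ligand, were listed at 0 in all 6. Among those tested, Dpp4, a surface peptidase gene whose product can cleave CXCL12, was at 56.7 and 57.3 TPM in N and 91.7 and 92.3 in ACT IL21 (log2 fold change 0.68, limma adjusted p = 0.0546). The sphingosine 1-phosphate phosphatase gene Sgpp1 was at 105 and 133 TPM in N and 76.4 and 64.8 in ACT IL21 (-0.74, limma adjusted p = 0.0887). Sgpp2, its homologue, was between 0.79 and 6.26 TPM, and Mfsd2b, a sphingosine 1-phosphate transporter gene, between 0.62 and 2.93 TPM.

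Among related positioning and egress receptors, Ccr7 was lower in both ICOS+ pools than in N, and S1pr1 was lower in ACT than in N and in ACT IL21. Of 9 tested, 3 were lower and none higher in ACT than in N (median -0.36, against 0.02 for all genes). In ACT IL21, 2 were lower than in N (median -0.33, against 0.1). Of all genes tested, 1.43% and 1.26% were lower in these 2 comparisons. Ccr7 was at 425 and 258 TPM in N, 90.7 and 54.4 in ACT, and 128 and 115 in ACT IL21. It fell in ACT (log2 fold change -2.22, limma adjusted p = 0.00448) and in ACT IL21 (-1.44, limma adjusted p = 0.0322).

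S1pr1 was at 536.5 and 463.2 TPM in N, 129.1 and 118.4 in ACT, and 313.2 and 349 in ACT IL21. It was the 1 gene of the list that passed in ACT IL21 against ACT, where it was higher (log2 fold change 1.41, limma adjusted p = 0.00536). Of all genes tested, 0.796% were higher in that comparison. Against N, S1pr1 in ACT IL21 stood at -0.59 (limma adjusted p = 0.0653). S1pr1 and Gpr183 thus had their lowest libraries in the same pool. Cd69, which encodes a protein that pulls S1PR1 off the surface, was at 138 and 153 TPM in N, 81.9 and 98.9 in ACT, and 110 and 121 in ACT IL21, and did not pass. The Ccr7 call in ACT IL21 against N was lost without any 1 of the N or ACT IL21 libraries (adjusted p up to 0.259), and that in ACT against N without N replicate 1 (0.0589). The S1pr1 call in ACT IL21 against ACT was lost without either ACT IL21 library (adjusted p up to 0.126).

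Downstream of the receptors, most genes of G proteins, migration effectors and desensitisation did not pass. Of 31 tested, 4 were higher in ACT than in N, 5 were higher in ACT IL21 than in N, and 1 was lower in ACT IL21 than in ACT. Of all genes tested, 4.15%, 3.82% and 1.15% passed in the same directions. The medians were 0.08, 0.32 and 0.26, against 0.02, 0.1 and 0.08 for all genes. Rgs1, which shortens signalling by chemokine receptors, was at 46.5 and 74.8 TPM in N, 325 and 371 in ACT, and 124 and 168 in ACT IL21. It rose in both ICOS+ pools over N (log2 fold changes 2.54 and 1.27, limma adjusted p = 0.00116 and 0.027). The second call was lost without any 1 library other than ACT replicate 1 (adjusted p up to 0.245). Rgs16, a gene of the same family, rose from 0.29 and 0.13 TPM to 5.62 and 6.83 in ACT and 5.45 and 6.23 in ACT IL21. Gng2, a G protein gamma subunit gene, rose by 1.23 in ACT and 1.81 in ACT IL21 on the log2 scale. Dock2, a motility factor gene that activates Rac, was at 218 and 209 TPM in N and 352 and 361 in ACT IL21 (0.74, limma adjusted p = 0.0176), a call lost without any 1 of those 4 libraries (adjusted p up to 0.164). The Rgs16 and Gng2 calls were also lost without 1 or more single libraries (adjusted p up to 0.149 and 0.143). Gna13, named here after its values were seen because S1PR2 signals through its product, was at 111 and 115 TPM in N, 120 and 129 in ACT, and 143 and 156 in ACT IL21, and did not pass (adjusted p = 0.19 to 0.69).

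Transcription factors tied to these receptors were split. Of 21 tested, ACT had 7 higher and 5 lower against N. ACT IL21 had 8 higher and 1 lower against N, and 6 higher and 2 lower against ACT. Of all genes tested, 4.15% were higher and 1.43% lower, 3.82% and 1.26%, and 0.796% and 1.15% in these comparisons. The medians of the list were 0.19, 0.5 and 0.48, against 0.02, 0.1 and 0.08 for all genes. Tox2, which promotes the follicular helper programme, reached 27.3 and 29.2 TPM in ACT IL21 against 3.53 and 3.24 in ACT, and N had it listed at 0. Its calls in ACT against N and in ACT IL21 against ACT were lost without any 1 library (adjusted p up to 0.152 and 0.148). Maf rose from 1.24 and 1.64 TPM to 63.9 and 62.8 in ACT and 100.3 and 107.3 in ACT IL21. Id2, an inhibitor of E proteins, was highest in ACT, at 860 and 693 TPM against 210 and 159 in ACT IL21 and 50.7 and 54.9 in N. Lef1 fell from 401 and 406 TPM in N to 108 and 126 in ACT and 149 and 172 in ACT IL21, and the latter call was lost without any 1 of the N or ACT IL21 libraries (adjusted p up to 0.0718). The Id2 call in ACT IL21 against ACT was lost without either ACT IL21 library (adjusted p up to 0.0982), and that against N without ACT IL21 replicate 1 (0.0604).

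The following factors were named after their values were seen, for their known ties to the receptors. Bcl6, the repressor that directs follicular helper cells, was at 22.9 and 24.6 TPM in N, 24 and 19.9 in ACT, and 55.6 and 48.7 in ACT IL21, and it was higher in ACT IL21 than in ACT (1.21, limma adjusted p = 0.0342). Ascl2, which drives Cxcr5, was listed at 0 in N and ACT and was at 3.9 and 1.1 TPM in ACT IL21. Klf2, which drives S1pr1, was at 157 and 152 TPM in N, 42.1 and 53.1 in ACT, and 93 and 123 in ACT IL21. Klf2 was thus lowest in the pool in which S1pr1 and Gpr183 were lowest, and its part in those results was not tested. Tcf7, Lef1, Foxo1 and Foxp1 were also called lower in ACT than in N, and ACT was their lowest pool too. Like Klf2, Tcf7 and Foxp1 were also called higher in ACT IL21 than in ACT. Their values with 1 library left out are not given here. The Klf2 fall in ACT passed whichever library was left out. The rises of Klf2 (1.16, limma adjusted p = 0.0278) and Bcl6 from ACT to ACT IL21 were lost without any 1 library (adjusted p up to 0.247 and 0.244).

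**Figure D5:**
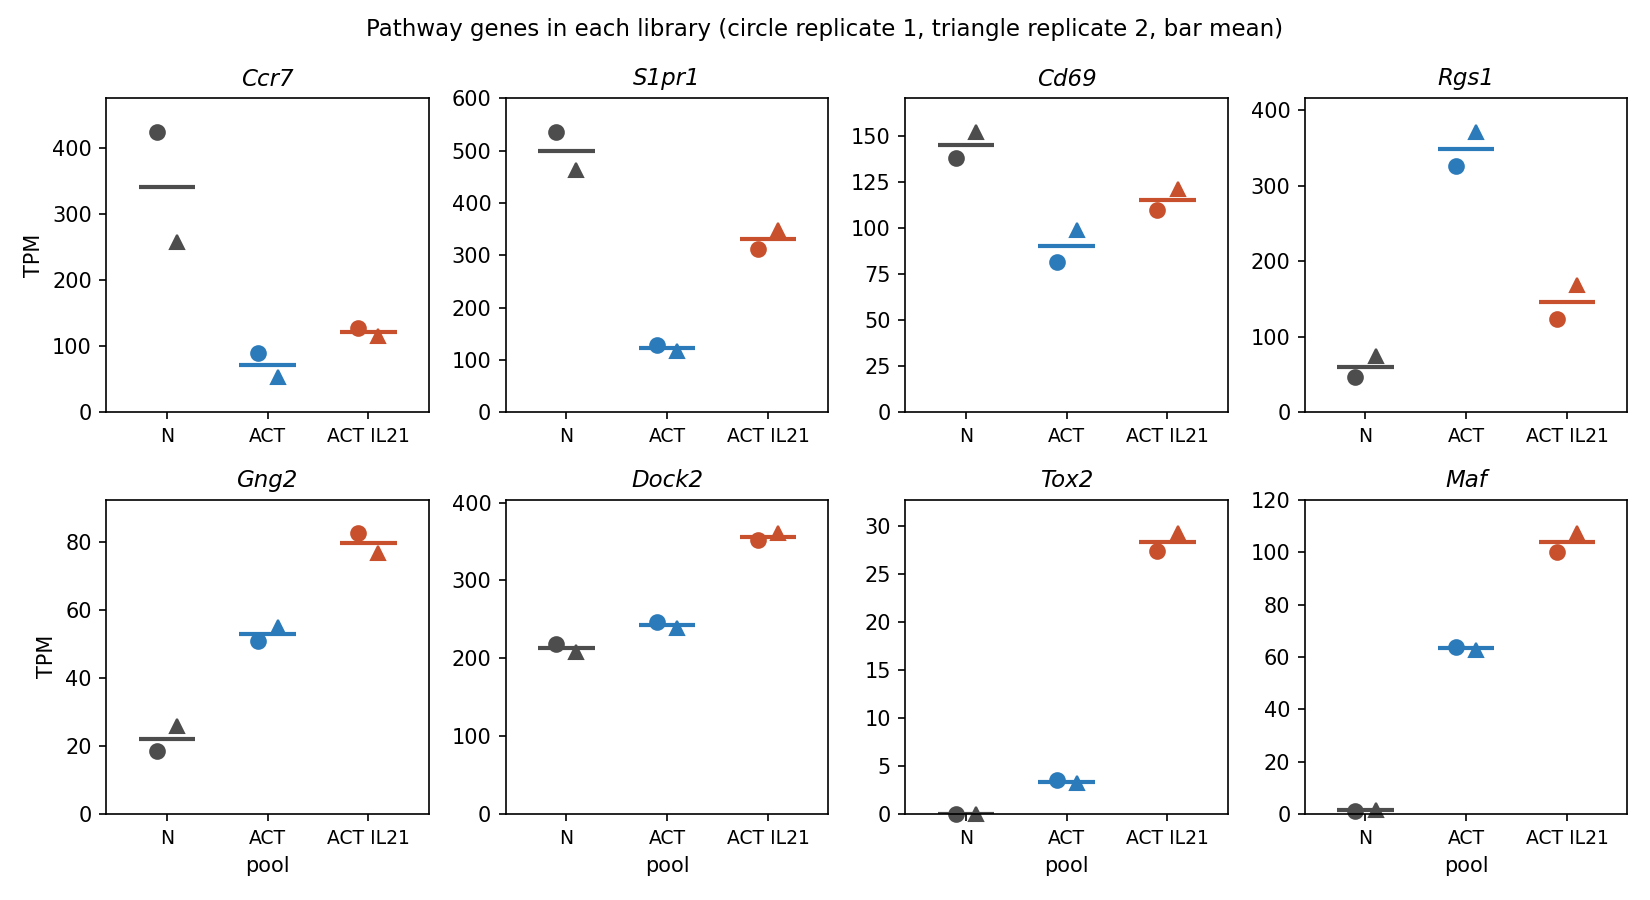
TPM (vertical axes, from 0) of 8 genes of the receptors' pathways in each library, by pool; circles are replicate 1, triangles replicate 2 and bars means. Ccr7 and S1pr1 are highest in N, Rgs1 in ACT, and Gng2, Dock2, Tox2 and Maf in ACT IL21, while S1pr1 in ACT IL21 (313.2 and 349) lies between N and ACT.

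Surface and cytokine genes of follicular helper cells rose alongside Cxcr5 in ACT IL21. Of 16 tested, ACT had 8 higher and 1 lower against N, ACT IL21 had 12 higher and 0 lower against N, and ACT IL21 had 8 higher and 1 lower against ACT. At an unadjusted p under 0.05 there were 10, 13 and 10, and the share of all genes at that threshold is not given here. The medians were 0.8, 2.62 and 1.18 on the log2 scale, against 0.02, 0.1 and 0.08 for all genes. At the adjusted threshold, 4.15% of all genes tested were higher and 1.43% lower, 3.82% and 1.26%, and 0.796% and 1.15% in the 3 comparisons. The list holds Icos and Il21, which the sort used. Angptl2, a secreted glycoprotein gene, rose from 0.46 and 0.73 TPM in N to 10 and 10.3 in ACT and 58.2 and 49.6 in ACT IL21. Tigit, an inhibitory receptor gene, rose from 2.25 and 1.72 TPM to 86.4 and 113 in ACT and 125 and 112 in ACT IL21. Il4, a cytokine gene, took another order, at 90.7 and 61.4 TPM in ACT and 15.8 and 11.5 in ACT IL21. The differences of Angptl2 and Il4 between ACT IL21 and ACT were lost without any 1 library (adjusted p up to 0.179 and 0.227).

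The genes whose pattern over the 6 libraries was closest to each receptor were found by the root mean square distance between log2(TPM + 1) profiles, each centred on its own mean, among 8659 genes with a mean of at least 5 TPM. For Cxcr5 they were Tox2 (0.301 log2 units), Angptl2 (0.412), Cd22 (0.555), Eea1 (0.557) and Sccpdh (0.577). For Gpr183 they were Arl3 (0.0921), Ralgps1 (0.101), Klhl11 (0.106), Aen (0.114) and Il6st (0.155). Il6st encodes the shared signalling chain of the interleukin 6 family, and it was at 219 and 214 TPM in N, 99.7 and 146 in ACT, and 231 and 213 in ACT IL21. For S1pr2 they were Mapre2 (0.147), Pafah1b3 (0.149), Folr4 (0.172), Gemin8 (0.19) and Gramd1b (0.192). Folr4, a folate receptor family gene, was at 93.4 and 66.9 TPM in N, 354 and 189 in ACT, and 347 and 407 in ACT IL21. For Cxcr4 they were H2afj (0.108), Rnf215 (0.116), Ngdn (0.117), Fam50a (0.125) and Dlg3 (0.128), none of which passed in any comparison. Among the receptors themselves the closest pair was Cxcr4 and Gpr183 (0.512) and the most distant Cxcr5 and Gpr183 (1.91).

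Other cells of the spleen also carry these receptors, and in bulk samples fewer cells of a type and less RNA per cell cannot be told apart. B cells carry Cxcr5, Cxcr4 and Gpr183. The 13 B cell markers in the table summed to 3.83 and 2.48 TPM in N, 5.58 and 6.33 in ACT, and 18.1 and 23 in ACT IL21. Cd22, an inhibitory receptor gene of B cells, was the 1 member of 3 tested that passed in ACT IL21 against N, at 13.1 and 17.4 TPM in ACT IL21, a call lost without any 1 of the N or ACT IL21 libraries (adjusted p up to 0.0707), and the other 12 summed to 2.41 to 5.58 TPM over all libraries. Pax5, a defining B cell gene, was listed at 0 in all 6 libraries. Cd79b was between 0.54 and 2.47 TPM.

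ACT, the pool with the least Gpr183, had the highest summed levels of natural killer and NKT cell markers and of regulatory T cell markers, though not of every member. The 11 natural killer and NKT cell markers summed to 63.2 and 70 TPM in N, 1116 and 994.8 in ACT, and 219.5 and 177.8 in ACT IL21. Of the 10 tested, 6 were higher in ACT than in N and 7 lower in ACT IL21 than in ACT. Klrb1c was in both counts and was at 166 and 177 TPM in ACT. In ACT IL21 against N, 2 were higher (Klrb1c and Nkg7) and 2 lower (Klrd1 and Prf1). The 9 regulatory T cell markers summed to 246 and 261 TPM in N, 842 and 961 in ACT, and 476 and 499 in ACT IL21. Of these 9, ACT had 6 higher against N. ACT IL21 had 3 higher (Ikzf2, Nrp1 and Ctla4) and 4 lower against N, and 5 lower against ACT. Of all genes tested, 4.15% were higher in ACT than in N. In ACT IL21, 3.82% were higher and 1.26% lower against N, and 1.15% were lower against ACT. Foxp3 was at 22.2 and 19.4, 65.4 and 51.9, and 1.57 and 2.69 TPM in the 3 pools, and Il2ra at 46.1 and 64.2, 124 and 125, and 7.16 and 8.48. Nrp1 had a mean of 47.2 TPM in ACT IL21 and 39.6 in ACT, which did not pass (limma adjusted p = 0.668), and Ctla4 had 253.1 and 251.3 (adjusted p = 0.946). The Foxp3 and Il2ra calls in ACT against N were lost without any 1 library (adjusted p up to 0.3 and 0.221). The part of these markers in the receptor differences was not tested.

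The remaining marker lists were lower, apart from single genes. The 12 myeloid and dendritic cell markers summed to 36.8 and 30.3 TPM in N, 78.1 and 66.7 in ACT, and 52.2 and 56.5 in ACT IL21, most of it Cst3, and Cd14, Clec9a and Siglech were listed at 0 in every library. Of 9 stromal markers Pdpn, Ccl21a, Col1a2, Pdgfrb and Clu were listed at 0 in every library, and Pecam1, which T cells also express, held nearly all of the sum. Pecam1 was at 127 in both N libraries, 58.3 and 59.7 in ACT, and 121 and 101 in ACT IL21, so that ACT was its lowest pool, as for Gpr183, and its part in that result was not tested. Cd8b1 was at 26.7 and 18.7 TPM in N and between 3.41 and 9.8 in the ICOS+ pools. Early response genes, which cell handling can raise, were called for 3 of 14 in ACT against N (Dusp1 higher, Fos and Jun lower). Fosb was called in ACT IL21 against N and Fos in ACT IL21 against ACT, both higher. Of all genes tested, 5.58%, 5.09% and 1.95% were called in ACT against N, ACT IL21 against N and ACT IL21 against ACT. Fos was at 85.8 and 78.2 TPM in N, 50.6 and 46.5 in ACT, and 106 and 121 in ACT IL21, the same order of pools as Gpr183, and its part in that result was not tested.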

How the data were processed

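CD4+ T cells of 3 sorted pools were profiled in 2 libraries each. The labels' protocols name RNeasy columns and NuGEN Ovation amplification of polyadenylated RNA, and the design text names a MiSeq. The authors deposited gene-level TPM, 1 column per library. The submitters' processing notes name Trimmomatic, Bowtie, RSEM and GRCm38, with no versions, while strand setting and annotation release were not given in the sources used here. TPM has a fixed total and keeps no depth, and RSEM divides shared reads by estimation.

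Entries that repeat a symbol (139 of 38355) were summed. The 13311 genes reaching 1 TPM in 2 or more libraries entered limma 3.58.1 (R 4.3.3) as log2(TPM + 1), with all 6 libraries in 1 model (3 residual and 4.841 prior degrees of freedom), an intensity trend and two-sided tests. Fold changes on this scale understate the change of low genes. The fit was also run on simulated data as a self-test, whose outcome is not given here and is not used for any result. Ratios of means are of TPM. Besides the 4 receptors, Icos, Il21 and Cd4, each list named its 4 members with the smallest F test p (all where 4 or fewer were tested) and its most abundant member where none passed. The 5 closest profiles to each receptor left out provisional and clone-type symbols. Cd3e, genes at or near 0 and genes named as such in the text were chosen after their values were seen. The members and gene lists were chosen with earlier results of these data known. Lists are described by counts and medians, with no set test. Some list members are counted but not reported here.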

Additional observations from a re-analysis of the deposited data

How the results depend on the processing

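Each receptor result was recomputed under 15 alternatives, and 179 of 180 values kept their direction. Many of the 180 could not change direction, so this count is not a measure of stability. A changed filter, no intensity trend, a replicate block, and leaving out libraries of the pool not compared all keep the fold change by construction. Cxcr4 in ACT against N turned to 0.12 without ACT replicate 2, and ranged from -0.58 to 0.12 with 1 library left out. Cxcr5 in ACT IL21 against N passed under all 15.

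Without the filter on low values 469, 410 and 124 genes were called in ACT against N, ACT IL21 against N and ACT IL21 against ACT, and these values lost their call: Gpr183 at -0.95 and 1.24 (against N and from ACT to ACT IL21; adjusted p = 0.0794 and 0.0703), S1pr2 at 2.03 (0.125) and Cxcr5 from ACT to ACT IL21 at 2.44 (0.0588). With only the 4 libraries of a comparison 417 and 92 genes were called in ACT against N and ACT IL21 against ACT, and Cxcr5 in ACT at 2.31 (0.0678), Gpr183 at -0.95 and 1.24 (0.108 and 0.102) and S1pr2 at 2.03 (0.053) lost theirs. Without an intensity trend Gpr183 lost both calls, at -0.95 and 1.24 (0.126 and 0.105). S1pr2 lost its call at a pseudocount of 0.1 (2.77, adjusted p = 0.0517) and when rescaled without ribosomal and receptor segment genes (2.07, 0.0547).

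With 1 library left out, limma called 205 to 526, 75 to 728 and 0 to 81 genes in the 3 comparisons. The 0 was without ACT IL21 replicate 1, where 1631 genes had an unadjusted p under 0.05. The log2 fold changes ranged from 1.84 to 2.77 and 2.33 to 2.56 for Cxcr5 in ACT against N and ACT IL21 against ACT, from -1.21 to -0.69 and 0.98 to 1.5 for Gpr183 in the same comparisons, and from 1.75 to 2.32 for S1pr2 in ACT IL21 against N. These fits have fewer degrees of freedom, and a pool with 1 library is assumed to vary like the others.

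The replicate numbers were not taken to pair the libraries, since the labels do not say what they mark. The differences between replicates 1 and 2 correlated across genes at 0.21 between N and ACT, but at -0.004 and 0.000782 between these pools and ACT IL21. With a replicate block 784, 732 and 284 genes were called against 743, 677 and 259, and S1pr2 in ACT IL21 against N, at 2.03, lost its call (adjusted p = 0.0551). The block changed no other receptor call. Depth is unknown, so counting error at low TPM, as for S1pr2 in N, cannot be given.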
